A study of Ictidomys tridecemlineatus with 31 samples.

Results

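The genes described here are the splicing factors of the kidney of the 13-lined ground squirrel (13-LGS), a mammal that hibernates. They were taken by symbol alone, as every row named SRSF with a number, HNRNP, SF3A or SF3B, SNRP, U2AF, or PRPF with a number, with no use of measured values. The rule gave 67 genes of the 12863 in the table, namely 10 SR proteins, 20 hnRNPs, and 37 genes of the spliceosome itself (12 SNRP, 9 SF3, 3 U2AF, and 13 PRPF). For 6 symbols more than 1 row matched, and the row with the highest mean was taken. No member sequence is printed.

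Kidneys were collected in 6 states, each kidney from 1 animal. The active season is represented by summer active (SA, 4 animals) and by spring dark (SpD, 5 animals, warm and past their last torpor bout while still in the hibernaculum). Hibernation is represented by interbout aroused (IBA, 5 animals, rewarmed between torpor bouts), entrance into torpor (Ent, 5 animals, cooling), early arousing (EAr, 5 animals, cold and starting to rewarm), and late arousing (LAr, 5 animals, further rewarmed). Each state has 2 or 3 males and 2 or 3 females. IBA, Ent, and SpD each hold 3 animals of experiment 1 and 2 of experiment 2, which used different library kits and instruments, and SA, EAr, and LAr come from experiment 2 alone. The study set apart a further SA animal (K137) and a further LAr animal (K113), and these are described at the end and enter no comparison. The labels give no age.

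Splicing removes introns from pre-mRNA. The U1 snRNP reads the start of an intron, U2AF and the U2 snRNP with its SF3A and SF3B subunits read its end and branch point, and the U4/U6.U5 tri-snRNP with PRPF proteins then forms the active spliceosome. SNRP genes encode proteins of these snRNPs, including the Sm ring that they share. SR proteins bind exons and mostly promote the use of nearby splice sites, and hnRNPs coat the transcript and often oppose them. Both families set which exons are included.

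Values are batch-corrected regularized log (rlog) counts on the log2 scale, where a difference of 1 is a doubling. Values of different genes are not compared, since they are not per length, and depth is unknown. Differences came from a limma model of state, sex, and experiment in 29 animals, fitted to all genes, with Benjamini-Hochberg adjustment (q) over all genes in each comparison. A gene was called at q under 0.05, and the count at q under 0.001, the threshold of the study, is given beside it. A pair is written first state over second, and its difference is the first minus the second. Values after ± are SD, and SE is given for fitted differences. Several comparisons share the IBA animals, so their results are not independent of each other.

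The tissue matched its label. All 6 proximal tubule markers and both loop of Henle markers were in the table, and none of 5 adrenal cortex markers was. Of the 3 leukocyte markers, CD79A alone was in the table. The kidneys differed in tubule markers by state. The mean of the 6 proximal tubule markers was 15.5 ± 0.119 in SA (n = 4) and 14.6 ± 0.406 in IBA (n = 5), and SLC34A1 and SLC5A2, which carry phosphate and glucose, were lower in IBA by limma (-1.59, q = 0.0028, and -2.25, q = 0.0024). Of 30 markers of kidney cell types and blood, 7 were lower and none higher in IBA than in SA. Of all genes, 12.5% were lower and 10.4% higher. In hibernation 13 markers were lower and none higher than in the active season, beside 16.8% and 16.6% of all genes. In bulk tissue, fewer cells of a type and less RNA per cell cannot be told apart. The part of these marker differences in the results on splicing factors was not tested.

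Across the 6 states 28 of 67 members (41.8%) were called, which is below the 46.1% of all genes, and 4 passed q under 0.001 (SRSF5, SRSF3, HNRNPDL, and PRPF40B), beside 9.34% of all genes. The groups differed in their counts, from 6 of 10 SR proteins, 10 of 20 hnRNPs, 6 of 13 PRPF, and all 3 U2AF genes to 2 of 9 SF3 and 1 of 12 SNRP genes. The changes were modest. The state means of a member spanned 0.228 at the median, 0.110 at the least (HNRNPH2, which is named for this value), and 0.867 at the most (SRSF5).

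**Figure D1:**
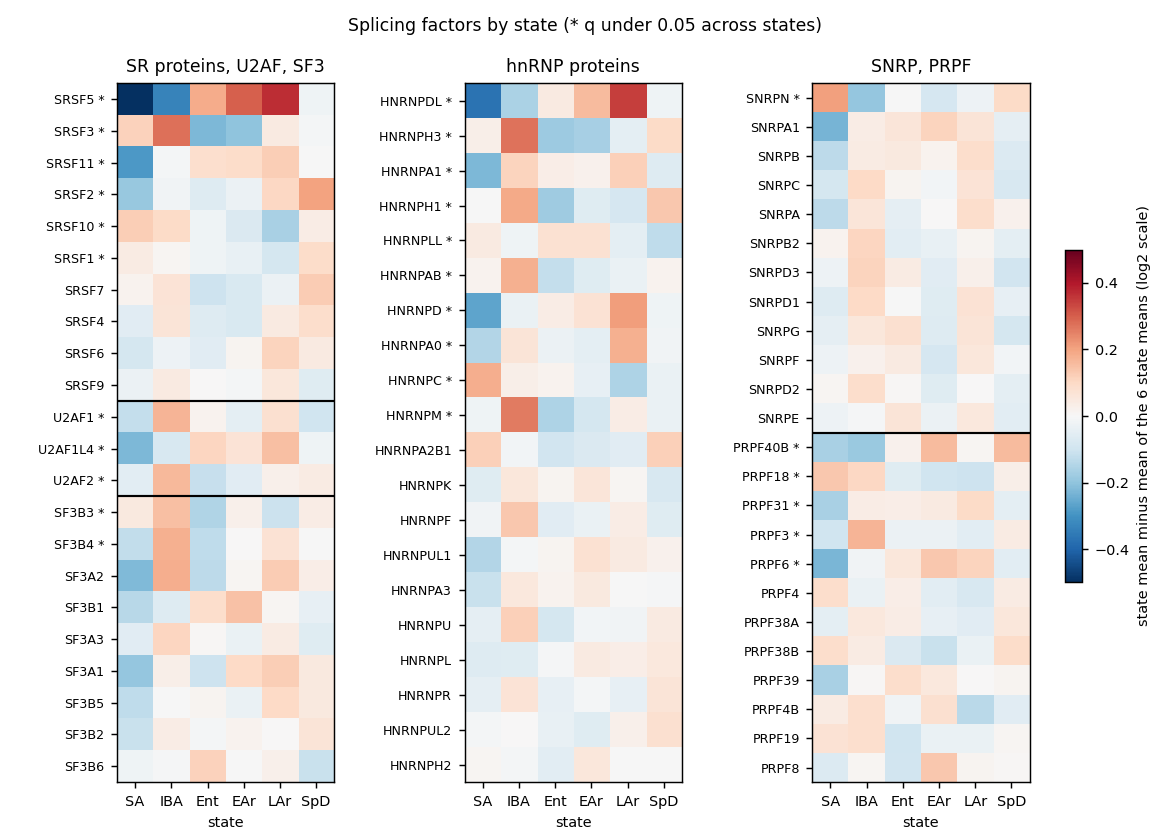
State means of 66 of the 67 splicing factors in 29 animals, each gene centered on the mean of its 6 state means (color, log2 scale, cut at 0.5 in both directions), with rows ordered by the p of the F test within each group and an asterisk at q under 0.05 across states. SRSF5 and HNRNPDL run from low in SA to high in LAr, SRSF3, HNRNPH3, and HNRNPM are highest in IBA, and most SNRP genes are pale.

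The state means of SRSF5 spanned more than those of any other member (0.867), ahead of the hnRNP HNRNPDL (0.718) and of SRSF3 (0.501), and SRSF5 and SRSF3 had different profiles. SRSF5, an SR protein that binds exonic enhancers, was low in SA and IBA and high in the cold states. Its rlog values were 13.05, 12.65, 13.36, and 13.47 in SA and 13.37, 13.25, 13.30, 13.29, and 13.27 in IBA. They were 13.80, 13.81, 13.81, 13.90, and 13.73 in Ent, 13.84, 14.05, 14.02, 13.80, and 13.92 in EAr, and 13.99, 14.00, 13.91, 14.09, and 14.01 in LAr. In SpD they were 13.29, 13.91, 13.55, 13.45, and 13.83. All 5 IBA values lay under every Ent, EAr, and LAr value, while SpD animals lay in both ranges. The difference was -0.79 (SE 0.13) for IBA/LAr (q = 2.2e-04), which is 1.73-fold higher in LAr. It was -0.72 (SE 0.13) for IBA/EAr (q = 6.1e-04) and 0.52 (SE 0.11) for Ent/IBA (q = 0.0049). In experiment 2 alone, which leaves 2 IBA animals, the same differences were -0.71 (q = 0.014), -0.64 (q = 0.024), and 0.52 (q = 0.21). Over the seasons SRSF5 was higher in hibernation by 0.39 (SE 0.07, q = 2.3e-04), and by 0.50 in experiment 2 alone (q = 9.1e-04).

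SRSF3, the smallest SR protein, which also acts in mRNA export, had its highest state mean in IBA. Values were 11.80, 11.71, 11.36, 11.78, and 11.77 in IBA, 11.29, 11.29, 11.24, 11.05, and 11.05 in Ent, and 11.21, 11.22, 11.11, 11.17, and 11.34 in EAr. In LAr they were 11.54, 11.44, 11.43, 11.46, and 11.38, in SA 11.56, 11.49, 11.59, and 11.47, and in SpD 11.55, 11.31, 11.34, 11.44, and 11.37. Of the IBA animals 4 lay above every animal of any other state, and the remaining one, K171, lay just above the Ent and EAr animals and inside or under the range of the rest. SRSF3 was lower in Ent than in IBA by 0.50 on the log2 scale (difference -0.50, SE 0.07, q = 1.9e-04), and higher in IBA than in EAr by 0.51 (SE 0.08, q = 2.1e-04). The difference for Ent/IBA was -0.67 in experiment 1 and -0.24 in experiment 2 taken separately. A limma fit of experiment 2 alone gave -0.25 (q = 0.23) for Ent/IBA and 0.34 (q = 0.022) for IBA/EAr. The differences for IBA/LAr (0.25, q = 0.028) and SpD/IBA (-0.28, q = 0.01) were smaller, and in experiment 2 alone they were 0.09 (q = 0.53) and -0.05 (q = 0.79). Without K171 the IBA/LAr difference was 0.39 (q = 3.0e-04), and it was lost without K104 (0.24, q = 0.086), K115 (0.24, q = 0.053), or K116 (0.22, q = 0.072). A second row with the SRSF3 symbol and a lower level had the same direction (-0.36, q = 0.0088 for Ent/IBA and 0.45, q = 0.0032 for IBA/EAr). Reads can be split between such rows, so the level of either is uncertain.

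SRSF11 and SRSF2 were lowest in SA. SRSF11, an SR-related protein of the spliceosome, had values of 11.72, 11.67, 11.52, and 11.41 in SA, and every animal of the other states lay above the highest of them. It was higher in hibernation by 0.22 (SE 0.05, q = 0.002). The differences for IBA/SA (0.30, SE 0.09, q = 0.022) and SA/SpD (-0.31, SE 0.09, q = 0.038) were 0.27 (q = 0.16) and -0.32 (q = 0.076) in experiment 2 alone. The first was lost without K104 (q = 0.084), K140 (q = 0.053), or K141 (q = 0.085), and the second without any 1 of 7 animals, with q up to 0.21 (without K130). SRSF2, a founding SR protein found in nuclear speckles, had its highest mean in SpD, with values of 12.42, 12.35, 12.28, 12.33, and 12.28 there and 11.91, 11.85, 12.09, and 11.91 in SA. These groups did not overlap, and SA/SpD was -0.44 (SE 0.10, q = 0.0086, experiment 2 alone -0.44, q = 0.0071). Without K130 the difference was also -0.44, with q = 0.059.

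SRSF10 and SRSF1 differed by less. SRSF10, which acts as a general repressor of splicing once dephosphorylated, was higher in IBA (10.36 ± 0.06, n = 5) than in LAr (10.10 ± 0.11, n = 5) by 0.32 (SE 0.09, q = 0.012). Experiment 2 alone gave 0.23 (q = 0.092). SRSF1, the best studied SR protein, was lower in hibernation by 0.10 on the log2 scale (difference -0.10, SE 0.04, q = 0.033). It was lost without any 1 of 5 animals (K138, K140, K130, K6, or K84), with q up to 0.067. SRSF4, SRSF6, SRSF7, and SRSF9 were called in no comparison, and their state means spanned 0.12 (SRSF9) to 0.23 (SRSF7).

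**Figure D2:**
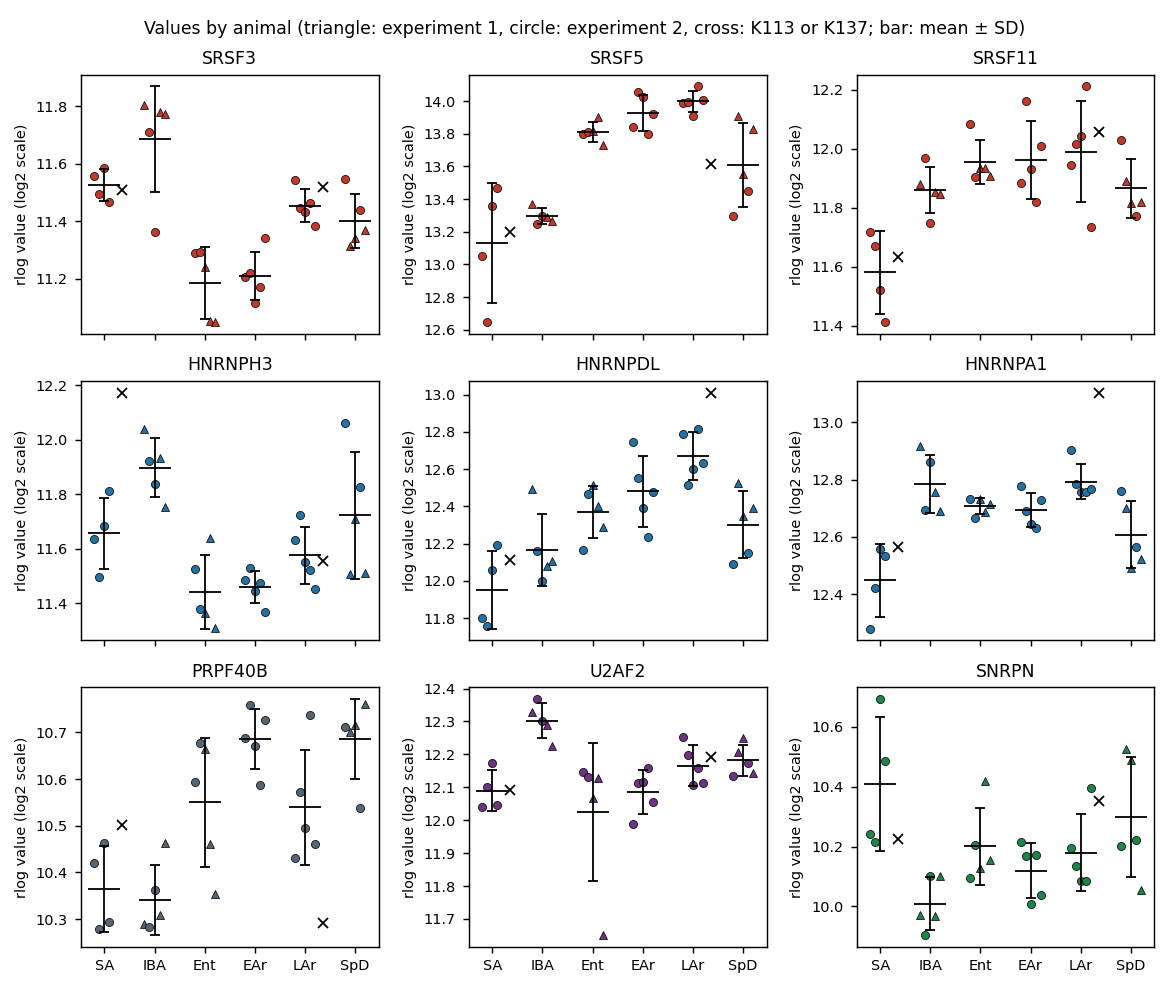
The rlog value (log2 scale) of 9 splicing factors in each animal by state, with triangles for experiment 1, circles for experiment 2, bars for mean ± SD over the 29 animals, and crosses for K137 (SA) and K113 (LAr), which are left out of the means. The 5 IBA animals of SRSF5 lie under all Ent, EAr, and LAr animals, and 1 Ent animal (K8) lies far under the others for U2AF2.

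Among the hnRNPs, HNRNPDL and HNRNPD had their lowest mean in SA and their highest in LAr. HNRNPH3, HNRNPH1, HNRNPM, and HNRNPAB had their highest mean in IBA. HNRNPDL, a relative of AUF1 that binds AU-rich RNA, had values of 11.80, 11.76, 12.06, and 12.19 in SA and 12.49, 12.16, 12.00, 12.08, and 12.10 in IBA. They were 12.74, 12.55, 12.39, 12.23, and 12.48 in EAr and 12.79, 12.51, 12.60, 12.82, and 12.63 in LAr. The IBA and LAr animals did not overlap, and the highest IBA animal, K1, lay within the EAr range. The difference was -0.61 (SE 0.11, q = 9.6e-04) for IBA/LAr, 1.53-fold higher in LAr, and -0.44 (SE 0.11, q = 0.012) for IBA/EAr. In experiment 2 alone these were -0.61 (q = 0.018) and -0.42 (q = 0.074). HNRNPDL was higher in hibernation by 0.29 (SE 0.06, q = 0.0012), though its mean in IBA (12.17) lay under that in SpD (12.30). HNRNPD (AUF1), which destabilizes AU-rich mRNAs, was also higher in hibernation, by 0.21 (SE 0.06, q = 0.013), and this was lost without K139 (0.17, q = 0.052).

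HNRNPH3 and HNRNPH1 bind runs of G. HNRNPH3 had values of 12.04, 11.92, 11.84, 11.93, and 11.75 in IBA and 11.52, 11.38, 11.37, 11.64, and 11.31 in Ent. In EAr they were 11.49, 11.53, 11.45, 11.47, and 11.37, and in LAr 11.63, 11.72, 11.55, 11.52, and 11.45. Every IBA animal lay above every Ent, EAr, and LAr animal. The differences were -0.45 (SE 0.08, q = 0.0016) for Ent/IBA, 0.49 (SE 0.10, q = 0.0013) for IBA/EAr, and 0.39 (SE 0.09, q = 0.0072) for IBA/LAr. In experiment 2 alone they were -0.40 (q = 0.11), 0.39 (q = 0.017), and 0.28 (q = 0.06). For HNRNPH1 the differences were -0.37 (q = 0.0052), 0.29 (q = 0.032), and 0.32 (q = 0.018), and in experiment 2 alone -0.14 (q = 0.52), 0.10 (q = 0.49), and 0.13 (q = 0.34). For HNRNPH1, IBA/EAr was lost without any 1 of 7 animals, with q up to 0.073. HNRNPH2, of the same family and named after its values were seen, was called in no comparison.

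HNRNPAB, a close relative of HNRNPD, was lower in Ent (11.70 ± 0.09, n = 5) than in IBA (12.00 ± 0.11, n = 5) by a difference of -0.29 (SE 0.06, q = 0.0032), and the groups did not overlap. Taken separately, the experiments gave -0.37 and -0.18, and in a limma fit of experiment 2 alone the call was lost (-0.16, q = 0.33). HNRNPM, which binds GU-rich RNA, differed by -0.41 (SE 0.11, q = 0.015) for Ent/IBA, and by -0.43 and -0.39 in experiments 1 and 2. The fit of experiment 2 alone gave -0.37 (q = 0.22). Its IBA/EAr difference of 0.39 (q = 0.029) fell to 0.28 (q = 0.10) without K154, the EAr animal at 12.13 beside 12.54 to 12.60 in the rest, and was also lost without K104 (q = 0.054), K171 (q = 0.056), or K4 (q = 0.054) and in experiment 2 alone (0.38, q = 0.054).

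HNRNPA1, among the most abundant hnRNPs and a classical antagonist of SR proteins, was higher in hibernation than in the active season. Its values were 12.28, 12.42, 12.56, and 12.53 in SA and 12.76, 12.70, 12.49, 12.57, and 12.52 in SpD. In the 20 hibernation animals they ran from 12.63 through a median of 12.73 to 12.92. All hibernation animals lay above every SA animal, and 2 SpD animals lay within their range. The difference between the seasons was 0.22 (SE 0.04, q = 1.9e-04), or 1.16-fold, and 0.18 (q = 0.009) in experiment 2 alone. IBA/SA was 0.34 (SE 0.07, q = 0.0017, experiment 2 alone 0.31, q = 0.018). HNRNPK, a poly(C)-binding protein named after its values were seen, was higher in hibernation by 0.10 (SE 0.03, q = 0.014).

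HNRNPA2B1, the partner of HNRNPA1 in the core hnRNP particle, differed the other way, by -0.18 (SE 0.05, q = 0.0086) between hibernation and the active season, and by -0.22 (q = 0.0088) in experiment 2 alone. HNRNPC, which binds U tracts, was called across states (q = 0.028) and in no pair. Its mean was 11.32 ± 0.15 in SA (n = 4) and 10.98 ± 0.06 in LAr (n = 5), a pair that was not fitted. HNRNPA0, a relative of HNRNPA1, was also called across states alone (q = 0.028), and HNRNPU, a scaffold protein of the nucleus, in no test (q = 0.36 across states). Second rows with the HNRNPC and HNRNPA0 symbols, of lower level, were not called across states (q = 0.71 and 0.081). HNRNPLL, which represses exons in lymphocytes, was higher in SA than in SpD by 0.25 (SE 0.06, q = 0.018). This was lost without K139 (q = 0.059) or K130 (q = 0.069).

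All 3 U2AF genes were called across states. U2AF2, the large subunit that binds the polypyrimidine tract, was highest in IBA, with values of 12.33, 12.37, 12.30, 12.29, and 12.22. In SA they were 12.04, 12.10, 12.17, and 12.05, and in Ent 12.15, 12.13, 12.07, 12.13, and 11.65. IBA overlapped neither group. The differences were 0.25 (SE 0.08, q = 0.026) for IBA/SA, 0.26 (SE 0.08, q = 0.025) for IBA/EAr, and -0.28 (SE 0.07, q = 0.011) for Ent/IBA. In experiment 2 alone they were 0.25 (q = 0.014), 0.25 (q = 0.021), and -0.20 (q = 0.21). Without K8, the Ent animal at 11.65, Ent/IBA was -0.18 (q = 0.014). IBA/SA was lost without K104 (q = 0.076), K138 (q = 0.062), or K141 (q = 0.062), and IBA/EAr without K154 (q = 0.07) or K104 (q = 0.075).

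U2AF1, the small subunit that reads the AG at the end of the intron, was also highest in IBA (10.62 ± 0.05, n = 5). It was 10.33 ± 0.14 in SA (n = 4) and 10.35 ± 0.14 in SpD (n = 5). IBA/SA was 0.32 (SE 0.08, q = 0.0085, experiment 2 alone 0.33, q = 0.034) and SpD/IBA was -0.27 (SE 0.07, q = 0.014, experiment 2 alone -0.22, q = 0.25). SpD/IBA was lost without K3 (-0.23, q = 0.053). U2AF1L4, a paralog of U2AF1, was higher in hibernation by 0.18 (SE 0.05, q = 0.012).

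Of the 9 SF3 genes, 3 were called in a pair. The share of all genes called in any pair was not counted. SF3A2, a subunit that joins U2 to the branch site region, was higher in IBA (10.35 ± 0.15, n = 5) than in SA (9.95 ± 0.19, n = 4) by 0.41 (SE 0.14, q = 0.032, experiment 2 alone 0.38, q = 0.027). It was lost without K1 (q = 0.051), K104 (q = 0.064), K171 (q = 0.054), K138 (q = 0.085), or K139 (q = 0.10). SF3B3 and SF3B4, named after their values were seen, were lower in Ent than in IBA (-0.30, q = 0.014, and -0.31, q = 0.018). Without K8 the SF3B4 difference was -0.19 (q = 0.039), and without K1 it was lost (q = 0.068). SF3B3 was lost without K1 (q = 0.058) or K4 (q = 0.052). Both were lost in experiment 2 alone (-0.16, q = 0.38 for SF3B3, and -0.18, q = 0.37 for SF3B4). SF3B1, the branch site scaffold, was called in no comparison and is also named after its values were seen.

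Of the 12 SNRP genes, which encode proteins of the snRNPs, 1 was called across states, and 3 were higher and 1 lower in hibernation. Whether the groups of members differ in these counts was not tested. The Sm ring genes SNRPD1, SNRPD2, SNRPD3, SNRPE, SNRPF, and SNRPG, listed after their values were seen, were called in none of the 9 comparisons, with a largest absolute difference of 0.205 (SNRPD3) and a lowest q of 0.13 (SNRPD3). SNRPN, which is expressed from the paternal allele in mammals and can replace SNRPB in the ring, was the gene called across states (q = 0.02). Its values were 10.24, 10.21, 10.69, and 10.49 in SA and 9.97, 9.90, 10.10, 9.97, and 10.10 in IBA. The groups did not overlap, and the difference was -0.45 (SE 0.11, q = 0.005), 1.37-fold higher in SA (experiment 2 alone -0.39, q = 0.038). SNRPN was lower in hibernation by a difference of -0.23 (SE 0.06, q = 0.0053). Its SpD/IBA difference (0.29, q = 0.045, experiment 2 alone 0.19, q = 0.43) was lost without any 1 of 16 animals, with q up to 0.14. SNRPB, the Sm protein that SNRPN resembles, was higher in hibernation by 0.15 (SE 0.04, q = 0.0077). Its row was the highest of 3 with that symbol and was lost with the next row (0.10, q = 0.057). The third row was called (0.13, q = 0.027). SNRPA1, of the U2 snRNP, and SNRPC, of the U1 snRNP, were also higher in hibernation, by 0.21 (q = 0.012) and 0.13 (q = 0.045). SNRPA1 was lost without K139 (0.15, q = 0.052), and SNRPC without any 1 of 19 animals, with a value of 0.079 and q = 0.18 without K138. Both were lost in experiment 2 alone (0.15, q = 0.18, and 0.095, q = 0.25). SNRPB, SNRPA1, and SNRPC were named after their values were seen.

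The PRPF genes differed among themselves. PRPF40B, which links U1 to the branch site, was low in SA and IBA. Its values were 10.29, 10.28, 10.36, 10.31, and 10.46 in IBA and 10.71, 10.70, 10.72, 10.54, and 10.76 in SpD. In SA they were 10.42, 10.28, 10.46, and 10.29, and in EAr 10.69, 10.76, 10.67, 10.59, and 10.73. SA and IBA lay under every SpD and EAr animal. The differences were 0.34 (SE 0.06, q = 7.8e-04) for SpD/IBA, -0.34 (SE 0.07, q = 0.0082) for SA/SpD, and -0.32 (SE 0.07, q = 0.0031) for IBA/EAr. In experiment 2 alone they were 0.27 (q = 0.088), -0.26 (q = 0.023), and -0.32 (q = 0.022). Ent/IBA was 0.21 (q = 0.026, experiment 2 alone 0.28, q = 0.18) and was lost without any 1 of 6 animals, with q up to 0.074.

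PRPF18, a factor of the second step of splicing, was higher in IBA (9.37 ± 0.07, n = 5) than in LAr (9.16 ± 0.08, n = 5) by 0.24 (SE 0.06, q = 0.0091, experiment 2 alone 0.24, q = 0.044). It was lower in hibernation by a difference of -0.12 (SE 0.03, q = 0.0089), though its mean in IBA lay above that in SpD (9.30). With K113 and K137 in the fit both calls were lost (0.19, q = 0.096, and -0.09, q = 0.10). PRPF3, of the U4/U6 snRNP, was highest in IBA (10.06 ± 0.08, n = 5) and 9.79 ± 0.11 in SA (n = 4), with IBA/SA at 0.33 (SE 0.08, q = 0.0045) and IBA/LAr at 0.28 (SE 0.07, q = 0.011). In experiment 2 alone these were 0.22 (q = 0.077) and 0.17 (q = 0.19). PRPF31 and PRPF6, which hold the tri-snRNP together, were higher in hibernation by 0.16 (SE 0.04, q = 0.002) and 0.21 (SE 0.06, q = 0.0052). The value of PRPF6, named after its values were seen, was 0.33 (q = 3.4e-04) in experiment 2 alone. PRPF8, the catalytic core protein, and PRPF19, a ubiquitin ligase of the spliceosome, were called in no comparison and are named after their values were seen.

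The transitions of the hibernation cycle were counted over all members. From SA to IBA, 9 members were higher and 1 lower (SNRPN), beside 10.4% and 12.5% of all genes. The 9 are 13.4% of the members and the 1 is 1.49%. None passed q under 0.001, and 22 were higher and 3 lower at an unadjusted p under 0.05. All genes were not counted at this unadjusted threshold, so these counts have no background. Of the 67 differences 57 (85.1%) were above 0, beside 54.5% of all genes, and the median was 0.139, beside 0.029. The count fell to 5 without K138 and to 6 without K139, the SA animals with the lowest means of the hnRNPs and of the spliceosome genes. Over all genes 2424 and 2255 were called in these fits, beside 1337 higher and 1605 lower in the main fit. From IBA to Ent, 2 were higher (SRSF5 and PRPF40B) and 11 lower, beside 5.52% and 7.61% of all genes, with a median of -0.049, beside -0.005. The 11 are 16.4% of the members. SRSF3 alone passed q under 0.001, beside 0.746% of all genes. The count fell from 13 to 7 without K1 and to 8 without K4. Calls over all genes fell as well, from 710 higher and 979 lower to 831 and 1130 in either direction. In each of the 13 the sign was the same in both experiments. The 13 were called in a fit that held both experiments, so this is no independent support.

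Between Ent and EAr and between EAr and LAr no member was called by limma. The background was low as well, at 0.148% higher and 0.109% lower for EAr/Ent, and 0.513% higher and 0.0622% lower for LAr/EAr. At an unadjusted p under 0.05, where all genes were not counted, there were 0 members for EAr/Ent and 4 for LAr/EAr. The largest absolute differences were 0.271 and 0.258. Without K171, 1 member was called for LAr/EAr, and 75 of all genes were, beside 66 higher and 8 lower in the main fit.

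From LAr to IBA, 8 members were higher and 2 lower (SRSF5 and HNRNPDL), beside 9.93% and 8.03% of all genes. SRSF5 and HNRNPDL also passed q under 0.001, beside 1.43% of all genes. The members' median was 0.033, beside -0.007. With each animal centered on its median it was -0.004, beside -0.044 for all genes. The sign of the members' median is therefore not settled. In both cases it lay above the median of all genes, a difference with no test. For IBA/EAr, 9 were higher and 4 lower, beside 9.56% and 8.16%, with a median of 0.080, beside 0.003. SRSF3 and SRSF5 passed q under 0.001, beside 1.58%. The count of 13 fell to 8 without K104 and to 7 without K154. Over all genes 1321 and 1559 were called in these fits, beside 1230 higher and 1049 lower in the main fit.

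From IBA to SpD, 2 members were higher (PRPF40B and SNRPN) and 4 lower, beside 6.48% and 5.42% of all genes. PRPF40B passed q under 0.001, beside 1.25%, and the count of 6 fell to 3 without K3. Over all genes 1026 were called without K3, beside 834 higher and 697 lower in the main fit. From SpD to SA, 2 were higher and 3 lower (SRSF2, PRPF40B, and SRSF11), beside 5.47% and 5.01%. None passed q under 0.001. At an unadjusted p under 0.05, 3 were higher and 10 lower, again with no count over all genes. The count of 5 fell to 1 without K130 and to 3 without K139. Over all genes 95 and 695 were called in these fits, beside 703 higher and 645 lower in the main fit. K130 held the lowest mean of the 6 proximal tubule markers in SpD (13.7, beside up to 15.5), and its part here was not tested. The members' median was -0.058 for SpD/IBA, beside -0.008, and -0.095 for SA/SpD, beside -0.005.

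Between hibernation (20 animals) and the active season (9 animals), 14 members were higher and 5 lower, beside 16.6% and 16.8% of all genes. The 14 are 20.9% of the members and the 5 are 7.46%. SRSF5 and HNRNPA1 passed q under 0.001, beside 9.73% of all genes. The median was 0.047, beside 2.4e-04. Of the 37 spliceosome genes (SNRP, SF3, U2AF, and PRPF) 8 were higher, 3 lower, and 30 (81.1%) above 0, beside 50.1% of all genes. Of the SR proteins 2 of 10 were higher, 1 lower, and 4 (40%) above 0. Differences between groups were not tested.

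**Figure D3:**
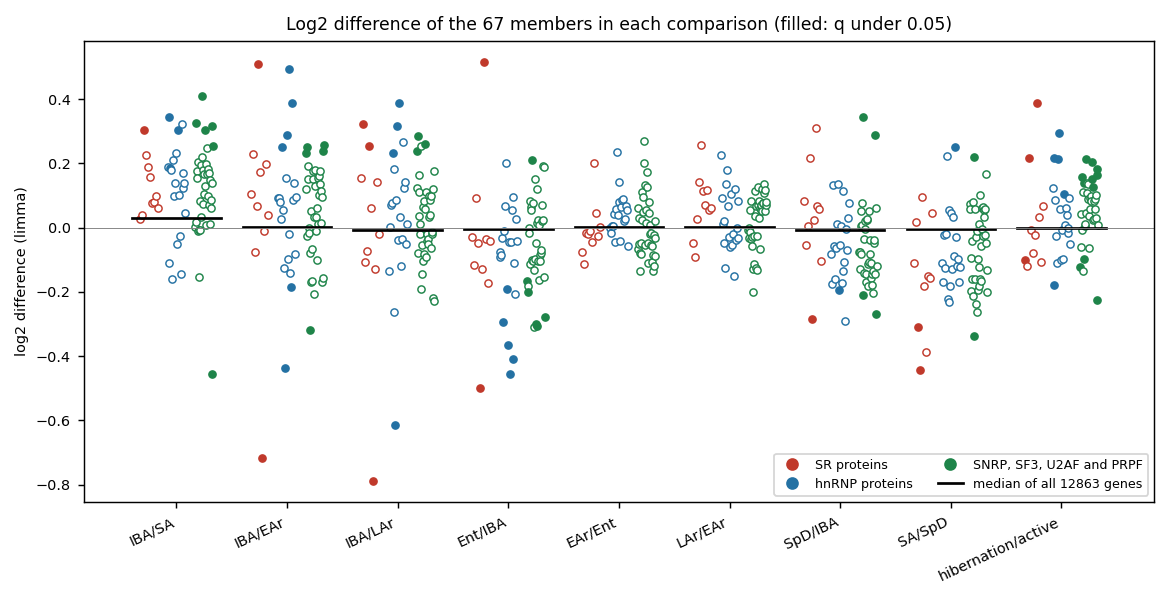
The limma log2 difference (first state minus second) of each of the 67 members in 9 comparisons, with SR proteins in red, hnRNPs in blue, and SNRP, SF3, U2AF, and PRPF genes in green, filled at q under 0.05, and a black line at the median of all genes. For IBA/SA 57 of 67 points lie above 0, and for EAr/Ent and LAr/EAr no point is filled.

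The order of the states was described from the means. The highest state mean was in IBA for 23 of 67 members (34.3%, beside 20.5% of all genes) and the lowest was in SA for 28 (41.8%, beside 25.7%). IBA was lowest for 2 members, 2.99% beside 19.6% of all genes. For the SR proteins the highest mean was in LAr for 4 and in SpD for 4 of 10, beside 15.6% and 16.5% of all genes. It was in IBA for SRSF3 alone. For the hnRNPs it was in IBA for 8 of 20 (40%), beside 20.5%. The lowest was in SA for 8 (40%) and in Ent for 7 (35%), beside 25.7% and 10.6% of all genes.

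The mean of each group was also taken by animal, as the difference of each member from its own mean. The hnRNP mean was -0.058 ± 0.076 in SA (n = 4), 0.059 ± 0.096 in IBA, and -0.041 ± 0.093 in Ent (n = 5 each). The Ent value includes K8 at -0.197, and the IBA value K1 at 0.204. K8 also had the lowest mean over all genes (-0.047) and the lowest median rlog (9.74) of the 31 animals. The mean of the 37 spliceosome genes was -0.067 ± 0.080 in SA (n = 4) and 0.045 ± 0.013 in IBA (n = 5), and all 5 IBA animals (0.031 to 0.062) lay above all 4 SA animals (-0.157 to 0.012). The SR mean was -0.089 ± 0.056 in SA (n = 4), 0.054 ± 0.080 in LAr (n = 5), and 0.047 ± 0.034 in SpD (n = 5). These means were not tested.

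**Figure D4:**
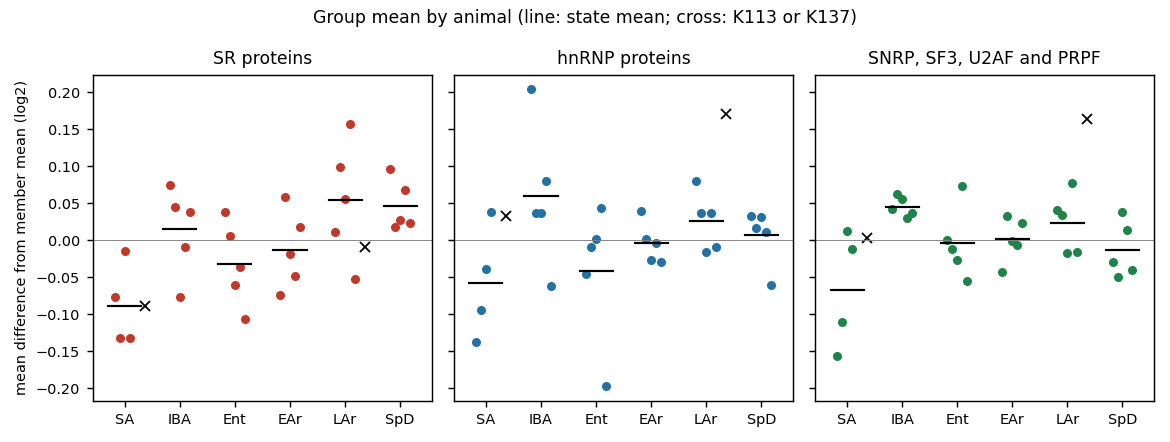
Mean difference of the SR proteins, hnRNPs, and other spliceosome genes from their own means (log2 scale) in each animal by state, with a line for the mean of the state and a cross for K137 (SA) and K113 (LAr). K138 and K139 (-0.157 and -0.110 in the right panel) lie lowest in SA, K8 (-0.197) lies lowest of all hnRNP values, and K113 lies above all other LAr animals for the hnRNPs and the spliceosome genes.

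Other genes of splicing were counted from fixed lists of 135, of which 134 were in the table. From SA to IBA 26 (19.4%) were higher and 3 (2.24%) lower, beside 10.4% and 12.5% of all genes. From IBA to Ent 3 (2.24%) were higher and 13 (9.70%) lower, beside 5.52% and 7.61%. From SpD to SA 0 were higher and 10 (7.46%) lower, beside 5.47% and 5.01%. For IBA/EAr the counts were 20 (14.9%) and 5 (3.73%), beside 9.56% and 8.16%, and for IBA/LAr 17 (12.7%) and 5 (3.73%), beside 9.93% and 8.03%. For SpD/IBA they were 1 (0.746%) and 9 (6.72%), beside 6.48% and 5.42%. No other splicing gene was called by limma for EAr/Ent or LAr/EAr. In hibernation 37 (27.6%) were higher and 13 (9.70%) lower, beside 16.6% and 16.8% of all genes, which are also the background of the counts for hibernation by list that follow. Across states 52 (38.8%) were called, which is below the 46.1% of all genes, as for the members.

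Both cold-inducible RNA-binding proteins, CIRBP and RBM3, which bind RNA and aid translation in the cold, were higher in hibernation, by 0.49 (SE 0.06, q = 4.9e-06) and 0.93 (SE 0.11, q = 2.1e-06). CIRBP, like SRSF5, was lower in IBA than in LAr (-0.66, q = 4.4e-04). CLK1, a kinase that phosphorylates SR proteins, was lower in hibernation by a difference of -0.34 (SE 0.08, q = 0.0013) and higher in IBA than in EAr by 0.70 (SE 0.13, q = 0.0013). It was 1 of 4 genes called across states among 19 SR-related proteins and SR kinases. Among these 19, 3 were higher in hibernation, BCLAF1 with them (0.18, q = 0.0026). BCLAF1 takes part in RNA processing.

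Of the 35 other regulators 11 were higher and 5 lower in hibernation. TARDBP (TDP-43), which represses cryptic exons, and RBM4, an exon regulator, were among the lower ones (-0.20, q = 3.0e-05, and -0.20, q = 9.1e-04). Both were higher in IBA than in EAr (0.34, q = 2.5e-04, and 0.40, q = 9.0e-04). Of 24 factors of the PRPF19 complex and the catalytic steps, 4 were higher and 4 lower, and CDC40 and CRNKL1 were lower (-0.26, q = 2.2e-05, and -0.20, q = 0.003). Of 4 U1 genes, LUC7L was higher (0.29, q = 6.6e-04) and LUC7L3 lower (-0.23, q = 7.9e-04).

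Of 12 genes of U2 and the end of the intron, 5 were higher and 1 lower, with RBM17 at 0.16 (q = 5.1e-04) and DHX15, a helicase, at -0.14 (q = 0.0032). Of 19 tri-snRNP and LSM genes 6 were higher and none lower, with USP39 at 0.27 (q = 1.3e-05). DDX23, a helicase of the tri-snRNP, was higher in IBA than in SA (0.24, q = 0.0057) and lower in Ent than in IBA (-0.23, q = 0.0063). Of 9 exon junction genes 2 were higher, RNPS1 with them (0.12, q = 0.0087), and ACIN1 was higher in IBA than in SA (0.26, q = 0.036). Of 10 minor spliceosome genes 3 were higher, SCNM1 with them (0.26, q = 0.013), and PDCD7 was lower (-0.24, q = 1.0e-04).

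The animals set apart by the study lay outside the range of their state in many genes of all kinds. K113 lay above all 5 other LAr animals in 36 of 67 members (53.7%), below all in 7 (10.4%), and within their range in 24 (35.8%). Of all genes it lay above in 35.6%, below in 37.2%, and within in 27.1%. The largest gap among the members was in PRPF4, at 10.67 beside 9.90 to 9.96, and SRSF5 was below, at 13.62 beside 13.91 to 14.09. No SR protein was among the 36.

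K137 lay above all 4 other SA animals in 17 members (25.4%), below in 9 (13.4%), and within their range in 41 (61.2%). Of all genes it lay above in 33.9%, below in 29.5%, and within in 36.6%, so its members lay outside the range less often than all genes did, a difference with no test. The mean of all genes, taken as the difference from each gene's own mean, was 0.051 in K137 and 0.016 to 0.030 in the other SA animals, and its median rlog of 9.88 was the highest of the 31 animals. In K113 that mean was 0.004, beside -0.017 to -0.006 in the other LAr animals. The gaps of K137 were largest in PRPF39, at 10.87 beside 9.89 to 10.40, and in HNRNPH1, at 12.96 beside 12.28 to 12.49. PRPF4 was above the others in both animals (10.53 in K137, beside 10.07 to 10.17), as were HNRNPR and HNRNPU. In all, 11 members were above in both animals and 3 were below in both. The share of all genes that lay so in both animals was not counted, so these counts have no background. These genes were named after their values were seen, and no test was made with 1 animal.

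Apart from PRPF18, these calls given above were lost when K113 and K137 were put in the fit. For IBA/SA they were PRPF3 (0.27, q = 0.064) and SF3A2 (0.36, q = 0.08). For IBA/LAr they were PRPF3 (0.23, q = 0.12) and HNRNPH1 (0.30, q = 0.077), which was also lost for IBA/EAr (0.28, q = 0.10). For SA/SpD they were SRSF11 (-0.30, q = 0.079), PRPF40B (-0.30, q = 0.058), and HNRNPLL (0.24, q = 0.15). PRPF40B was lost for Ent/IBA (0.21, q = 0.068), SNRPN for SpD/IBA (0.29, q = 0.063), and SRSF1 between the seasons (-0.09, q = 0.066). With weights for animals, the SA/SpD calls of SRSF2 (-0.43, q = 0.054), PRPF40B (-0.33, q = 0.057), SRSF11 (-0.27, q = 0.21), and HNRNPLL (0.22, q = 0.14) were lost, as were SRSF1 (-0.09, q = 0.066) and SNRPC (0.11, q = 0.051) between the seasons. Without a term for experiment, the IBA/EAr calls of HNRNPDL (-0.32, q = 0.053) and HNRNPH1 (0.24, q = 0.054) and the SA/SpD call of HNRNPLL (0.19, q = 0.069) were lost. A fit of the 2 groups compared alone kept 6 calls of members in pairs of states and lost 51. The 6 were SRSF5 for Ent/IBA, IBA/LAr, and IBA/EAr, HNRNPDL for IBA/EAr, PRPF40B for SpD/IBA, and SRSF2 for SA/SpD.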

How the data were processed

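RNA was measured in kidneys of 31 13-LGS, 1 library each. The authors selected polyadenylated RNA, made libraries with the TruSeq kit (experiment 1) or the Nugen kit (experiment 2), and used cutadapt for trimming, HISAT2 to take out mitochondrial reads, and Salmon with the HiC_Itri_2 transcripts for quantification. Sums per gene came from tximport, genes of low rlog were dropped, and limma took out the difference between experiments. The deposited values are the authors' rlog on the log2 scale, which the authors made with DESeq2 and which shrinks differences of genes with few counts. Values ran from 4.11 to 19.8, and the animals' medians from 9.74 to 9.88. Depth is unknown, so the spread between animals sets the precision.

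The differences were computed from the deposited values with limma 3.58.1 in R 4.3.3 (terms for state, sex, and experiment, variances moderated by empirical Bayes along a trend with intensity, Benjamini-Hochberg adjustment within each comparison, all tests two-sided), since the authors' count test could not be run on them. The batch correction was done before the fit, and the term for experiment takes up a degree of freedom for it. In the fit without that term this degree of freedom is not counted. The fit held 29 animals, without K113 and K137. Hibernation is the mean of IBA, Ent, EAr, and LAr, and the active season that of SA and SpD. No member differed at q under 0.05 by limma between experiments or sexes (lowest q 0.83 and 0.36). The difference between experiments had already been taken out of these values, so the first of these tests could not show one.

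The members and lists were chosen with earlier results of these data known. Genes are named by a rule: every SRSF gene, the 8 hnRNPs and 8 other members of lowest p across states, the 3 largest called increases and decreases of each comparison, U2AF1, U2AF2, HNRNPA1, HNRNPA2B1, HNRNPC, and HNRNPU, and up to 2 genes of each list of other splicing genes. Genes named outside it are said to be so. The values of 1 member, which is counted with the others, are not reported here. Alternatives were all 31 animals, other terms, prior variances and weights, experiment 2 only, median centering, a mean of at least 8, the next row of a repeated symbol, a fit of the groups compared alone, q under 0.001, and each animal left out. The model was tested on simulated data. Plots used matplotlib 3.10.9 (Python 3.11.15). Coordinates and sequences are not used here.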

Additional observations from a re-analysis of the deposited data

Results flagged for a closer look

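Within the states, the values of 17 named members and the 3 group means were searched for a single animal far from the others, by the gap to its nearest neighbor over the range of the group (Dixon's criterion at 95%). Chance flags about 1 in 20 groups. Of 120 groups 8 held such an animal. SRSF3 was lowest in the IBA animal K171, at 11.36 beside 11.71 to 11.80. SRSF11 was highest in the Ent animal K155, at 12.09 beside 11.91 to 11.94. U2AF2 was lowest in the Ent animal K8, at 11.65 beside 12.07 to 12.15. HNRNPM was lowest in the EAr animal K154, at 12.13 beside 12.54 to 12.60. HNRNPA1 was highest in the LAr animal K109, at 12.90 beside 12.76 to 12.78. In SpD, HNRNPD was lowest in K130, at 11.99 beside 12.17 to 12.23, PRPF40B in K84, at 10.54 beside 10.70 to 10.76, and the hnRNP mean in K9, at -0.060 beside 0.011 to 0.032.

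K113, which enters no comparison, had a higher hnRNP mean (0.170) and a higher mean of SNRP, SF3, U2AF, and PRPF genes (0.164) than any other LAr animal (up to 0.080 and 0.078) and than any SA animal in the comparisons (up to 0.039 and 0.012). These differences were not tested.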

How the results depend on the processing

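Of 76 calls of single members, each kept its direction in every one of its 2949 alternatives, and the call was lost in 385 of these, 51 of them in a fit of the 2 groups compared alone and 42 in experiment 2 only. With 13 calls this happened in no alternative. The calls were picked in the main fit and the alternatives share animals with it. A kept direction was therefore largely set in advance and is no independent support. Counts of members called moved by more than 1.5 times as follows, and the causes of these moves were not tested. Apart from q under 0.001, the shares of all genes called in these settings are not given here. The moves are therefore not read as particular to the members. In all 31 animals, 5 were called for IBA/SA, 5 for IBA/LAr, and 1 for SA/SpD. With animal weights the counts were 17 for IBA/SA, 25 for Ent/IBA, 2 for LAr/EAr, 19 for IBA/LAr, 18 for SpD/IBA, 0 for SA/SpD, and 20 for IBA/EAr. In experiment 2 only, which leaves fewer animals, they were 0 for Ent/IBA, 3 for IBA/LAr, 2 for SpD/IBA, 10 for SA/SpD, and 6 for IBA/EAr. In fits of the 2 groups compared alone they were 0 for IBA/SA, 1 for Ent/IBA, 2 for LAr/EAr, 1 for IBA/LAr, 1 for SpD/IBA, 1 for SA/SpD, and 2 for IBA/EAr. Without a term for experiment, 8 were called for IBA/EAr. At q under 0.001 the counts were 4 across states, 0 for IBA/SA, 1 for Ent/IBA, 2 for IBA/LAr, 1 for SpD/IBA, 0 for SA/SpD, 2 for IBA/EAr, and 2 for hibernation/active.

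When 1 animal at a time was left out, the counts ran from 22 to 33 across states, 5 to 13 for IBA/SA, 7 to 14 for Ent/IBA, 0 to 1 for LAr/EAr, 8 to 14 for IBA/LAr, 3 to 9 for SpD/IBA, 1 to 6 for SA/SpD, 7 to 15 for IBA/EAr, and 17 to 28 for hibernation/active, and stayed at 0 for EAr/Ent. Calls over all genes moved as well, to 95 for SA/SpD without K130, beside 703 higher and 645 lower in the main fit. No paired analysis was possible because each animal is a separate kidney and the labels carry no shared replicate numbers. The p-values measure the spread between animals, and depth, being unknown, sets a limit that cannot be stated.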
